A study of Mus musculus with 250 samples.

Results

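Carboxylesterases are serine hydrolases of the endoplasmic reticulum and the plasma that cleave esters, from drugs and toxins to stored triglyceride. In mice the family has expanded into clusters of near copies, most of which are made chiefly by the liver, the gut or fat. Some members (Ces1d, Ces1f and Ces1g among them) are studied for the turnover of lipid droplets and the release of lipoproteins, and others for the hydrolysis of ester drugs. 10 carboxylesterase genes were examined here, Ces1c, Ces1d, Ces1e, Ces1f, Ces1g, Ces2a, Ces2c, Ces2e, Ces3a and Ces3b, in mice with breast tumors driven by Neu (Her2). They were chosen by their intensity in breast: Ces1d and Ces1f had the largest falls there in tumor-bearing mice, ranks 1 and 2 of the 18194 genes measured. Every breast value of these 10 genes below is therefore a description and carries no test.

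7 of the 10 genes had a probe set listed with that gene symbol alone. Ces3a and Ces3b share 1 probe set listed with both symbols, so no value is given for either, and Ces2c had none listed. Ces1d had 3 such probe sets, of which the brightest over all 250 arrays was used, and the other genes had 1 each. The Ces1f probe set is of a kind that the array maker marks as able to bind several near-identical transcripts, so part of its signal may belong to close relatives.

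The study compared tumor-bearing with control female FVB mice in 5 tissues (breast, liver, spleen, thymus and the cells of blood), 25 mice per group in each and 250 arrays in all. Tumor-bearing mice carried a pair of transgenes, MMTV-rtTA/TetO-NeuNT. The first is a doxycycline-dependent activator driven by a mammary tumor virus promoter that is active mainly in mammary epithelium, and the second is an activated Neu oncogene under its control. Control mice were littermates with TetO-NeuNT only, so both groups carried that transgene. From 8 weeks of age all mice drank water with doxycycline (2 mg/mL) and sucrose (5%), and each tumor-bearing mouse and its age- and cage-matched control were killed when the tumor reached about 1 cm. The age at that time is not given in the sources used here. The breast of a tumor-bearing mouse was taken as a whole with its tumor, and blood was sampled as cells after removal of the plasma.

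Values are log2 probe set intensities of whole-genome mouse GeneChip arrays, with a floor at 3.50, the 5th percentile of all intensities. How the arrays were scaled is not given in the sources used here and probe sets differ in brightness, so a level is compared only with the same gene in the same tissue. Changes are tumor-bearing minus matched control. Their standard error is that of the limma fit over pairs, which draws in part on the spread of all genes. A gene was said to rise or fall at an adjusted p under 0.05 (limma, Benjamini-Hochberg over all 18194 genes of the tissue). Pairs are numbered 1 to 25 in the order of their sample IDs, and the same number was linked across tissues.

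Several arrays stood apart from their label in the marker genes of their tissue. Results in liver, spleen and blood are given with and without their pairs. Those in breast and thymus are given with all pairs unless stated. The control liver of pair 9 had a mean of 10.59 over 10 hepatocyte markers, against a tissue median of 13.84, and its median correlation with the other control livers was 0.336. The control spleens of pairs 15 and 20 had B cell marker means of 6.36 and 6.31, against 12.73, and the tumor-bearing spleen of pair 15 had a thymocyte marker mean of 11.53, against 5.87. Control thymuses 4 and 7 had thymocyte marker means of 6.27 and 6.79, against 12.33. Hepatocyte markers were raised in control blood of pairs 7, 11, 16 and 18 (means of 8.29 to 9.43, against 5.28), in control breast 17 (8.14, against 5.10) and in tumor-bearing thymus 7 (9.60, against 6.11). Each of these means lay more than 3 log2 units from the tissue median. The highest hepatocyte marker mean in tumor-bearing blood, 8.01, lay just within that limit, so such signal was not confined to control blood. In breast, Erbb2, the mouse counterpart of the Neu oncogene, was lower in the tumor-bearing mouse in pairs 1 and 9, by -0.69 and -0.61, and higher by 0.25 to 2.70 in the other pairs.

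Promoter sequence from RefSeq (GRCm38.p6) was at hand for 7 of the 10 genes, Ces1c, Ces1e, Ces1g, Ces2a, Ces2c, Ces2e and Ces3b, and not for Ces1d, Ces1f or Ces3a. The 250 bases before the annotated start are shown for a pair of Ces1 genes and a pair of Ces2 genes, chosen by their liver values without pair 9. Ces1e (chr8:93229620-93229869, minus strand) and Ces2a (chr8:104733753-104734002, plus strand) stand for the members with lower liver signal in tumor-bearing mice. Ces1c (chr8:93131284-93131533, minus strand) and Ces2e (chr8:104926010-104926259, plus strand) had changes nearer 0. Differences between the genes' changes were not tested. Capitals mark matches to the motifs named after the sequences.
Ces1e: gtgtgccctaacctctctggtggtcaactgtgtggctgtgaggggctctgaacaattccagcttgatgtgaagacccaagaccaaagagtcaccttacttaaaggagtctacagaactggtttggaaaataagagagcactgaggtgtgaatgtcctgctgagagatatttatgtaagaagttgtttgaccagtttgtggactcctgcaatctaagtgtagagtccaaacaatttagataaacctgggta
Ces1c: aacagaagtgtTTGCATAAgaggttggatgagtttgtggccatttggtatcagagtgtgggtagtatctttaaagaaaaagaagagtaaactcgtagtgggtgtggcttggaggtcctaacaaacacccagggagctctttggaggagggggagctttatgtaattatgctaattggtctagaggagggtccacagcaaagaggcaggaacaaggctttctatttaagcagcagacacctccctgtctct
Ces2a: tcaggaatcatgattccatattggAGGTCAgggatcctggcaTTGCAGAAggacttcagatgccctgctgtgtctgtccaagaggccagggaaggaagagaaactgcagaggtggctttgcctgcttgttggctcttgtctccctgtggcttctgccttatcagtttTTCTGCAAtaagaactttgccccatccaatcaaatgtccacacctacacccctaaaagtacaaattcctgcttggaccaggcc
Ces2e: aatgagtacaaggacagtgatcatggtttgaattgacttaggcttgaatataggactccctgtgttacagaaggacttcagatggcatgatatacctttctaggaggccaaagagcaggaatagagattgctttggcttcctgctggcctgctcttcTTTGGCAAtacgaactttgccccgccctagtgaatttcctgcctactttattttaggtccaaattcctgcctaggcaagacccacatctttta

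Both strands of each window were searched for the TATA box TATAAA, the nuclear receptor half-site AGGTCA, the HNF1 half-site GTTAAT, the C/EBP motif TTGCNNAA and the HNF4 motif CAAAGTNCA. The C/EBP motif was found in Ces1c, in Ces2e and at 2 places in Ces2a, so in 3 of the 7 members with a promoter, against 9.56% of 32851 promoter windows of this length. The nuclear receptor half-site was found in Ces2a alone of the 7, against 14% of all windows. The TATA box was found in Ces1g and Ces3b (12.4% of all windows), the HNF1 half-site in Ces3b (6.43%), and the HNF4 motif in none of the 7 (1.19%). The Ces1e window held none of these letters. Ces2a and Ces2e shared an unbroken run of 17 bases, at 205 to 189 bases before the start in Ces2a and 183 to 167 in Ces2e. The longest run shared by Ces1c and Ces1e was 9 bases. No overlap between 2 motifs was seen in the 4 windows shown. These matches describe letters and not bound sites.

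In breast, the members split into a pair with strong signal in control mice and 5 genes near the floor in both groups. Ces1d, a triacylglycerol hydrolase of liver and fat that feeds lipid into lipoproteins, had 4.04, 6.72 and 11.24 in tumor-bearing breasts (lowest, median and highest), against 9.05, 11.99 and 12.45 in control breasts. Ces1f, a related lipid hydrolase, had 3.69, 4.31 and 9.39 in tumor-bearing breasts, against 6.68, 10.23 and 11.40 in control breasts. For each gene 20 of the 25 tumor-bearing breasts lay below the lowest control breast, and the mouse with the tumor had the lower signal in 24 of 25 pairs. The mean differences were -5.03 ± 0.42 for Ces1d and -4.93 ± 0.38 for Ces1f (SE, n = 25 pairs). The Ces1d difference is a 32.6-fold lower signal. No fold is given for Ces1f, whose median intensity of 19.9 in tumor-bearing breasts lay near the 20th percentile of that tissue (18). Over all genes, 32.3% passed the test as lower in tumor-bearing breasts and 30% as higher. In whole tissue, fewer cells of a type and less RNA per cell cannot be told apart.

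Both genes spread more widely among tumor-bearing than among control breasts. The standard deviation of Ces1d was 1.96 in tumor-bearing breasts and 0.69 in control breasts, and that of Ces1f was 1.59 and 1.02. The exception to the direction was pair 1 for both genes, in which Ces1d was 9.07 in the tumor-bearing mouse and 9.05 in its control, and Ces1f 7.32 and 6.68. That control had the lowest Ces1d of its group. The highest tumor-bearing value of both genes was in pair 9, where Ces1d was 11.24 in the tumor-bearing mouse and 11.99 in its control. Erbb2 was lower in the mouse with the tumor in pairs 1 and 9. Without them Ces1d reached at most 9.72 in tumor-bearing breasts and was at least 10.83 in control breasts. Ces1f then reached 7.91 in tumor-bearing breasts and had a control minimum of 7.75. The pairs left out held the lowest control and the highest tumor-bearing values of both genes, and other genes were not counted in this way.

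**Figure D1:**
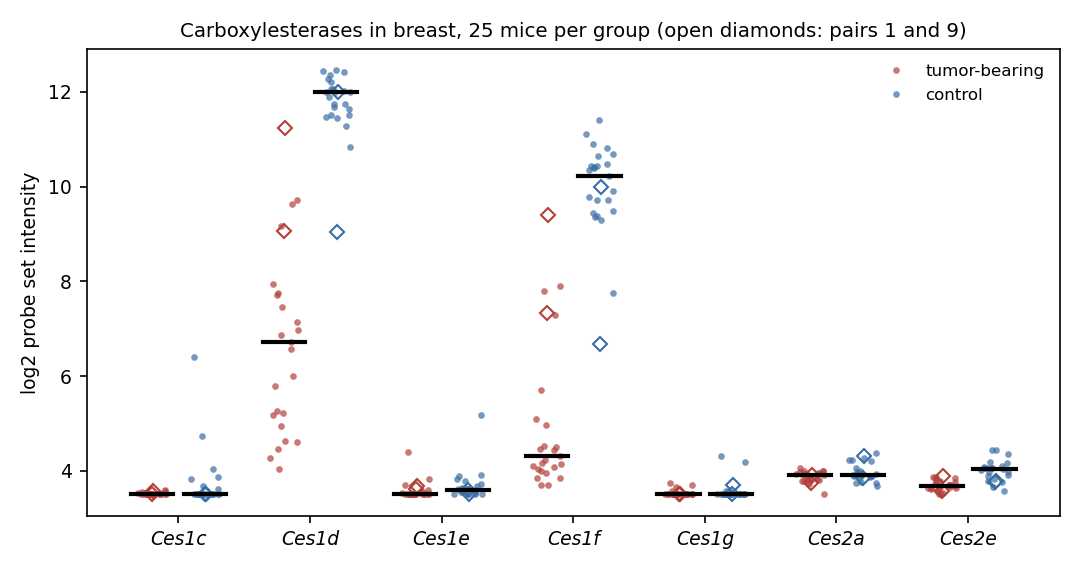
Log2 probe set intensity of the 7 measured carboxylesterases (x axis) in each breast, tumor-bearing mice in red and control mice in blue, with a black line at the median of each group. Ces1d and Ces1f have medians of 6.72 and 4.31 in tumor-bearing breasts, against 11.99 and 10.23 in control breasts, and the other 5 genes lie near the floor of 3.50; open diamonds are pairs 1 and 9.

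The other members showed little signal in breast. Ces1c, which encodes an esterase that the liver secretes into plasma, had a median of 3.50 in tumor-bearing and in control breasts. Its highest control value was 6.40, in the breast of pair 17 that carried hepatocyte markers. Ces1e, which encodes egasyn, the protein that holds beta-glucuronidase in the endoplasmic reticulum, had medians of 3.50 and 3.6 in tumor-bearing and control breasts. Ces1g, a liver esterase linked to lipid secretion, stayed at the floor in 20 of 25 arrays of each group. Ces2a, a hydrolase of liver and gut, had medians of 3.91 in both groups. Ces2e, a further liver and gut esterase, had medians of 3.67 in tumor-bearing and 4.04 in control breasts and was lower in 23 of 25 pairs, with a difference of -0.31 ± 0.05.

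The 3 probe sets of Ces1d ran the same way in breast. Their mean differences were -5.03, -4.68 and -3.87, and each was lower in 24 of 25 tumor-bearing mice. The rank of Ces1d and its 32.6-fold value are those of the first probe set, the one used. The other 2 had smaller falls than Ces1f (-4.93). Of the 6 other carboxylesterases measured (Ces1h, Ces2b, Ces2f, Ces2g, Ces4a and Ces5a), 2 were lower in tumor-bearing breasts and none was higher, a share close to the 32.3% of all genes that were lower. Ces2g had a median of 5.36 in tumor-bearing breasts and 6.39 in control breasts, a difference of -0.97 ± 0.15 (limma adjusted p = 1.98e-06). Ces1h, with low medians of 4.21 and 4.45, differed by -0.26 ± 0.06 (limma adjusted p = 0.00069).

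Markers of fat moved with Ces1d and Ces1f in breast. All 10 measured adipocyte markers were lower in tumor-bearing breasts, with a median change of -3.64 beside -0.03 over all genes. Their mean level was 7.0, 8.51 and 11.52 in tumor-bearing breasts (lowest, median and highest) and 10.02, 12.06 and 12.62 in control breasts. All 7 brown fat markers and 13 of 15 genes of lipolysis and triglyceride handling were lower as well, and 7 of 10 other drug-hydrolysing genes were lower with 2 higher. The 7 epithelial markers moved the other way, with 6 higher and a mean level of median 11.77 in tumor-bearing and 9.96 in control breasts. All 7 skeletal muscle markers were lower, as were all 5 T cell and all 3 B cell markers measured. Of 8 neutrophil markers 4 were higher and 1 lower. The part that these tissue shares had in the family's differences was not tested, and the same contrast chose the members.

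Among mice of 1 group, Ces1d ran with the adipocyte markers in breast, given here as a description of the arrays that chose it. Over the 25 control breasts, Pearson's r of Ces1d with the mean of the adipocyte markers was 0.95 and Spearman's rho 0.88. Without the 2 arrays farthest from the median (pairs 1 and 25) r was 0.85. Ces1f had r of 0.92 and rho of 0.79 over the same arrays, and r of 0.73 without those 2 arrays. Over the 25 tumor-bearing breasts Ces1d had r of 0.95 and rho of 0.94, and r of 0.93 without pairs 4 and 9. Within the earlier and the later run of sample IDs, r of Ces1d was 0.98 (10 mice) and 0.91 (15 mice) in tumor-bearing breasts, and likewise 0.98 and 0.91 in control breasts. With brown fat markers in place of adipocyte markers, r of Ces1d was 0.95 over tumor-bearing and 0.57 over control breasts, and r of Ces1f was 0.36 over control breasts. Ces1f in tumor-bearing breasts, and the other members, lay too near the floor for such a value.

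**Figure D2:**
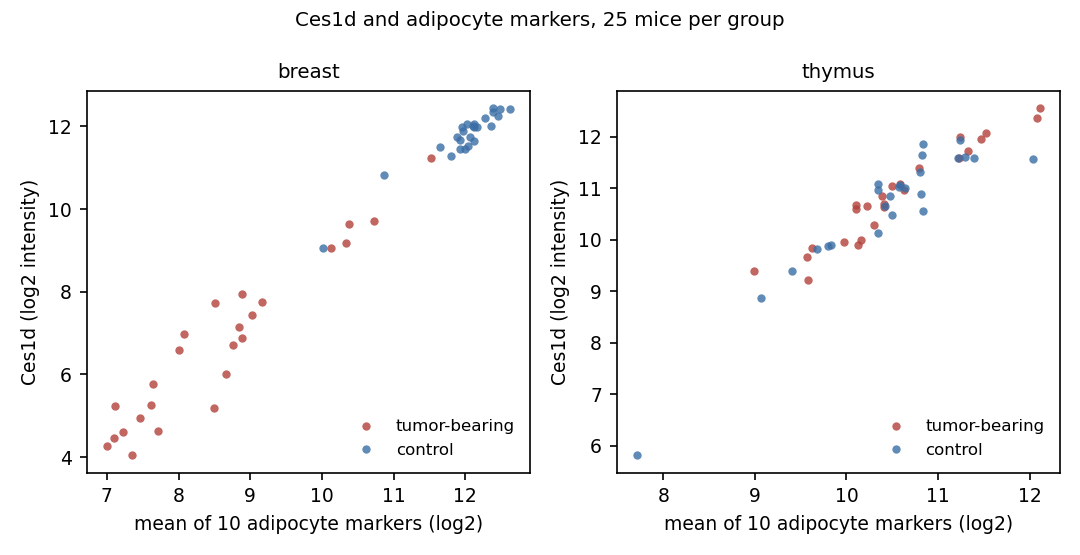
Ces1d (y axis, log2 intensity) against the mean log2 intensity of 10 adipocyte markers (x axis) in each breast (left panel) and thymus (right panel), with tumor-bearing mice in red and control mice in blue. Within each group and tissue the points run along a line, with r between 0.93 and 0.96; the groups separate in breast and mix in thymus, and the axes differ between panels.

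Outside the family, the 5 genes whose signal was most like that of Ces1d over the 25 control breasts were Amy1 (r of 0.957), Adhfe1 (0.944), Gstz1 (0.939), Pparg (0.937) and Cmbl (0.936). Pparg encodes the nuclear receptor that governs fat cell formation, and Cmbl encodes a hydrolase that activates an ester prodrug in humans. Ces1d and Ces1f had r of 0.89 with each other over control breasts, with the far arrays of pairs 1 and 25 included. Over tumor-bearing breasts r was 0.90, but Ces1f lay near the floor there (median 4.31), so that value says little. These values describe 25 arrays of 1 tissue, and no p is given for them.

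In liver, the tissue in which the family is best known, Ces1e and Ces1f fell with all 25 pairs in the fit. Ces1e had 8.29, 9.72 and 10.35 in tumor-bearing livers (lowest, median and highest), against 5.53, 10.95 and 11.29 in control livers. Its change was -1.14 ± 0.22 (SE, n = 25 pairs, limma adjusted p = 0.000716), a 2.20-fold lower signal, and it was lower in 24 of 25 pairs. The groups overlapped through 3 control livers at or below the highest tumor-bearing value. Ces1f had 9.22, 11.14 and 11.99 in tumor-bearing livers and 6.38, 12.31 and 12.44 in control livers, a change of -1.03 ± 0.27 (limma adjusted p = 0.0093) with 24 of 25 pairs lower. Over all genes 2.28% fell and 7.89% rose in tumor-bearing livers, beside 2 of 7 members that fell and none that rose.

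Pair 9, whose control liver was the one low in hepatocyte markers, ran the other way for every member. In that control Ces1d was 7.56, Ces1e 5.53, Ces1f 6.38, Ces1g 6.54, Ces2a 5.18 and Ces2e 5.59, and Ces1c was 10.72, each the lowest of its group. Among the other 24 pairs the mouse with the tumor had the lower signal in 24 of 24 for Ces1d, Ces1e, Ces1f and Ces2a. Without pair 9, 6 of the 7 members fell, beside 7.68% of all genes that fell and 11% that rose. The control liver of pair 3 also stood apart, with a median correlation of 0.828 against 0.993 for its group, and pair 3 stayed in that fit. Its differences were 0.08 for Ces1c, -0.45 for Ces1d, -0.06 for Ces1e, -1.11 for Ces1f, 0.7 for Ces1g, -0.45 for Ces2a and 1.5 for Ces2e.

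**Figure D3:**
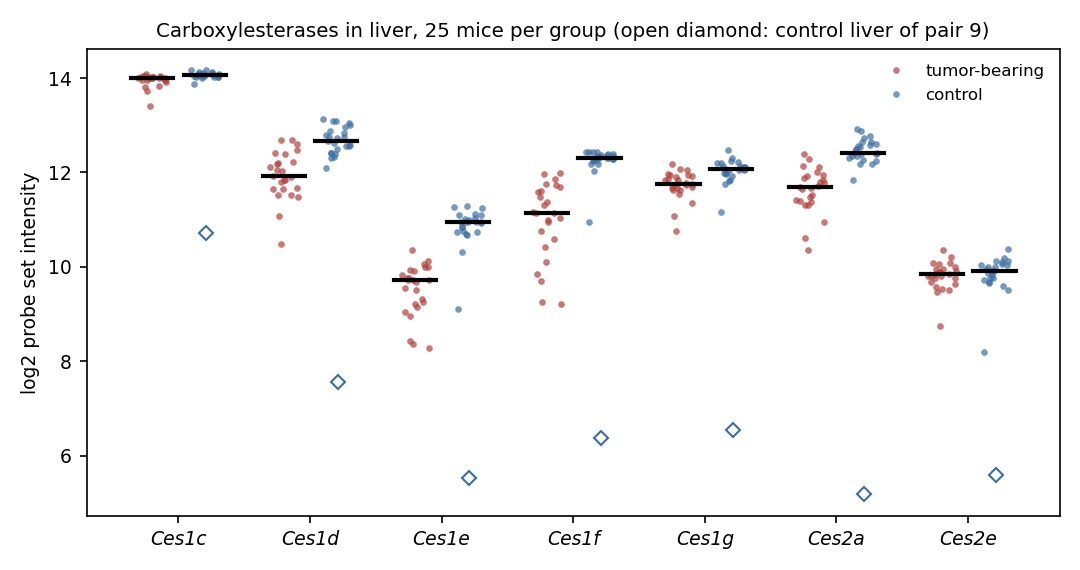
Log2 probe set intensity of the 7 measured carboxylesterases (x axis) in each liver, tumor-bearing mice in red and control mice in blue, with a black line at the median of each group. The medians of Ces1e are 9.72 in tumor-bearing and 10.95 in control livers, and the open diamond, the control liver of pair 9, lies below its group for all 7 genes.

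The lipid hydrolases Ces1d, Ces1f and Ces1g all fell once pair 9 was left out. Ces1f changed by -1.27 ± 0.15 (limma adjusted p = 3.84e-07, n = 24 pairs), with 9.22, 11.16 and 11.99 in tumor-bearing livers and 10.96, 12.32 and 12.44 in control livers. Ces1d changed by -0.77 ± 0.09 (adjusted p = 2.94e-07), with 10.48, 11.92 and 12.68 in tumor-bearing livers and 12.09, 12.69 and 13.13 in control livers. With all 25 pairs the Ces1d change was -0.55 ± 0.23 (adjusted p = 0.152). The 3 probe sets of Ces1d gave -0.55, -0.46 and -0.67 over 25 pairs and were lower in 24, 23 and 22 of them. Ces1g changed by -0.30 ± 0.07 without pair 9 (adjusted p = 0.00384) and by -0.09 ± 0.21 with it (adjusted p = 0.846).

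Ces1e, the egasyn gene, changed by -1.33 ± 0.13 without pair 9 (limma adjusted p = 5.29e-09), a 2.52-fold lower signal, with 8.29, 9.73 and 10.35 in tumor-bearing livers and 9.10, 10.95 and 11.29 in control livers. All 24 pairs were lower. Ces1c, the plasma esterase gene, had 13.41, 14 and 14.08 in tumor-bearing livers and 10.72, 14.06 and 14.16 in control livers. Its change was 0.02 ± 0.13 with all pairs (adjusted p = 0.938) and -0.11 ± 0.04 without pair 9 (adjusted p = 0.0445). With quantile normalization its change was -0.10 (adjusted p = 0.0421), so its call depends on the setting.

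Of the 2 measured Ces2 members, Ces2a fell without pair 9 and Ces2e passed under neither fit. Ces2a had 10.35, 11.70 and 12.38 in tumor-bearing livers and 5.18, 12.41 and 12.91 in control livers. It changed by -0.55 ± 0.28 over 25 pairs (adjusted p = 0.276) and by -0.84 ± 0.09 without pair 9 (adjusted p = 3.33e-08, n = 24 pairs), with 24 of 24 pairs lower. Ces2e had 8.74, 9.84 and 10.36 in tumor-bearing livers and 5.59, 9.91 and 10.38 in control livers. Its change was 0.13 ± 0.19 (adjusted p = 0.717) over 25 pairs and -0.04 ± 0.10 without pair 9 (adjusted p = 0.829), and 13 of those 24 pairs were lower.

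**Figure D4:**
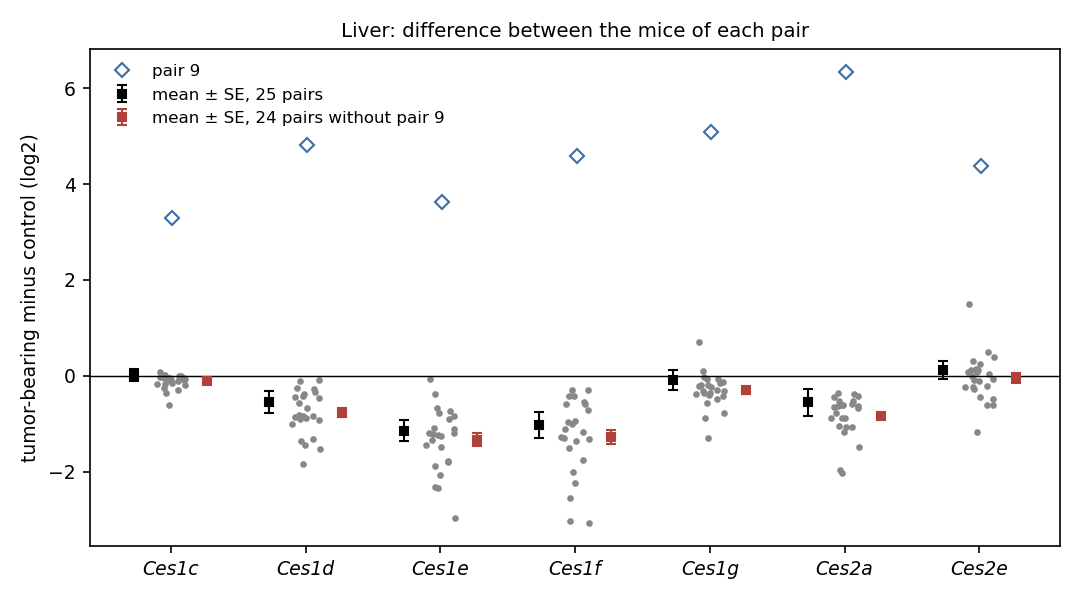
Difference in log2 intensity between the mice of each pair in liver (y axis, tumor-bearing minus control) for the 7 measured members (x axis), 1 grey point per pair, with the mean ± SE over 25 pairs in black and over 24 pairs in red. Pair 9, the open diamond, lies between 3.30 and 6.34 above 0 for every gene, and without it the means of Ces1e and Ces1f are -1.33 and -1.27.

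The liver differences were also taken within each run of sample IDs, with pair 9, which belongs to the earlier run, set aside. The mean Ces1e difference was -1.21 ± 0.66 in 9 earlier pairs and -1.41 ± 0.68 in 15 later pairs (SD). For Ces1f the means were -1.16 ± 0.71 and -1.33 ± 0.89, for Ces1d -0.75 ± 0.51 and -0.78 ± 0.46, and for Ces2a -0.84 ± 0.50 and -0.84 ± 0.43. All of these pairs were lower in the tumor-bearing mouse for these 4 genes. Fitted alone with pair 9 in it, the earlier run of 10 pairs gave no member that passed, with -0.73 for Ces1e (limma adjusted p = 0.691), beside 0.055% of all genes that fell. The later run alone gave 6 members that fell, beside 11.7% of all genes.

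Differences of the members ran together over pairs. Over the 24 pairs without pair 9, r between the within-pair differences was 0.85 for Ces1e and Ces1f, 0.84 for Ces1d and Ces1f, 0.80 for Ces1e and Ces2a, and 0.20 for Ces1f and Ces2e. The 5 genes outside the family whose liver differences were most like those of Ces1e over these pairs were Gstt3 (r of 0.892), Cyp1a2 (0.849), Ugt2b5 (0.845), Cd1d1 (0.844) and Gys2 (0.841). Gstt3, Cyp1a2 and Ugt2b5 encode enzymes that process foreign compounds. With pair 9 in, the 5 were Pbld2, Gpcpd1, Nr1i3, Ak4 and Galm (0.949 to 0.954), and none was shared. The differences share their 2 arrays per pair, and the values are descriptions.

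Other cell types and pathways changed in the same livers. The mean level of the 10 hepatocyte markers was 13.40, 13.84 and 13.93 in tumor-bearing livers (lowest, median and highest) and 10.59, 13.83 and 13.91 in control livers. None of the 10 passed in limma over 25 pairs, although Ahsg and Fgb were higher at an unadjusted p under 0.05. Without pair 9 Fgb rose by 0.30 ± 0.05 and Ahsg by 0.13 ± 0.04 (limma adjusted p of 1.06e-05 and 0.016), while Tat and Tdo2 were lower at an unadjusted p under 0.05 only. In the later run of sample IDs alone, 2 of the 10 rose and 3 fell, among them Tdo2 by -0.39 ± 0.08 (limma adjusted p = 0.00156). All 8 neutrophil markers rose, with a mean level of 7.06, 9.14 and 11.56 in tumor-bearing livers and 5.39, 5.63 and 6.21 in control livers, so the groups did not overlap. Prtn3, a granule protease, changed by 5.75 ± 0.12 (limma adjusted p = 1.78e-23). Of 13 acute phase genes, 9 rose and none fell, and without pair 9 all 13 rose. The part of infiltrating cells in the fall of Ces1e and Ces1f was not tested.

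Genes that share substrates or regulators with the family were counted from lists. Of 10 other drug-hydrolysing genes none passed in liver over 25 pairs, and 6 fell without pair 9, among them Cmbl by -0.81 ± 0.08, Ephx2 by -0.72 ± 0.07 and Pon1 by -0.22 ± 0.04 (limma adjusted p of 8.08e-09, 3.14e-09 and 0.00025). Of 9 target enzymes of xenobiotic and lipid receptors, 3 fell over 25 pairs and 6 without pair 9. Cyp4a14, a fatty acid hydroxylase and a known target of PPAR alpha, changed by -4.63 ± 0.25 over 25 pairs (adjusted p = 1.27e-13). Of 15 genes of lipolysis and triglyceride handling, 1 rose and 1 fell over 25 pairs. Without pair 9, 1 rose and 6 fell, with Lpl at 1.10 ± 0.18, Mgll at -0.74 ± 0.09 and Dgat2 at -0.45 ± 0.07. The median change was 0.01 for the drug-hydrolysing genes and -0.36 for the receptor targets over 25 pairs, beside 0.01 over all genes. Without pair 9 the medians were -0.23 and -0.38, beside -0.01. Of the 6 other carboxylesterases, Ces2b alone passed, at -0.30 ± 0.09 over 25 pairs (limma adjusted p = 0.0256), beside 2.28% of all genes that fell. Its medians were low, 4.44 in tumor-bearing and 4.54 in control livers.

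In spleen no member passed in limma over 25 pairs, and none had an unadjusted p under 0.05, while 18.3% of all genes fell and 22.4% rose. Ces1d had medians of 5.25 in tumor-bearing and 5.20 in control spleens. It reached 12.08 in the tumor-bearing spleen of pair 15 and 11.25 and 11.81 in the control spleens of pairs 15 and 20, the 3 arrays that stood apart from their label. Ces1f in the same arrays was 9.49 in the tumor-bearing spleen and 10.08 and 10.04 in the control spleens, against medians of 4.13 and 4.14 in tumor-bearing and control spleens. In those 2 control spleens Ces1e was 7.96 and 8.41 and Ces2e 6.48 and 6.5, against control medians of 4.05 and 4.43. The tumor-bearing spleen of pair 15 had an adipocyte marker mean of 11.10, and the control spleens of pairs 15 and 20 had 8.88 and 8.67, against medians of 6.91 in tumor-bearing and 6.94 in control spleens. Fat was not the only such list. The highest means among control spleens were 14.62 for pancreas, 11.18 for kidney and gut and 9.28 for epithelial markers, against medians of 7.19, 5.19 and 5.43. The part of any of these tissues was not tested. Without pairs 15 and 20 Ces1d stayed within 4.84 to 5.49 in tumor-bearing and 4.79 to 6.59 in control spleens. Ces2a and Ces2e then rose by 0.11 ± 0.04 each (limma adjusted p of 0.0229 and 0.0158, n = 23 pairs). These 2 of 7 members are close to the 29.5% of all genes that rose. Both lay near background, at a 20th percentile of 27.0 in spleen. Over 25 pairs the median intensity in tumor-bearing and control spleens was 27.4 and 24.9 for Ces2a and 23.1 and 21.6 for Ces2e.

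Of all carboxylesterases measured in spleen, Ces2g alone passed over 25 pairs, beside 22.4% of all genes that rose and 18.3% that fell. It had 6.79, 9.54 and 9.98 in tumor-bearing spleens and 6.18, 8.33 and 9.65 in control spleens, and it was higher in 25 of 25 pairs. Its change was 1.2 ± 0.13 (limma adjusted p = 4.43e-08), or 2.29-fold, and 1.17 ± 0.13 without pairs 15 and 20. The groups overlapped. Erythroid and neutrophil markers also differed between these spleens, with mean levels of median 12.66 and 13.52 in tumor-bearing and 11.84 and 11.20 in control spleens, and their part in the rise was not tested.

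In blood cells the members lay near the floor and none passed in limma over 25 pairs, with 5 of the 7 lower at an unadjusted p under 0.05, beside 11.2% of all genes. At the adjusted threshold 4.27% of all genes fell and 8.66% rose. Ces1c had 3.50, 3.50 and 6.61 in tumor-bearing blood and 3.50, 3.56 and 8.54 in control blood, a change of -0.76 ± 0.37 (adjusted p = 0.216). The 4 control arrays with hepatocyte markers held its 4 highest control values, 7.64 to 8.54. Without those pairs the change was -0.07 ± 0.24 (adjusted p = 0.903, n = 21 pairs), and no member had an unadjusted p under 0.05. Ces1d changed by -0.32 ± 0.12 over 25 pairs (adjusted p = 0.0718) and by -0.15 ± 0.08 without them (adjusted p = 0.329). Pair 4 stayed in both fits and held the highest tumor-bearing Ces1c, 6.61, against 3.50 in its control.

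In thymus no member passed in limma and none had an unadjusted p under 0.05. Over all genes 0% fell and 0.011% rose, with 1.12% lower and 3.04% higher at an unadjusted p under 0.05. Ces1d had 9.22, 10.70 and 12.56 in tumor-bearing thymuses and 5.81, 10.96 and 11.94 in control thymuses, a change of 0.23 ± 0.29 (adjusted p = 0.995). Ces1f had 5.81, 7.59 and 9.81 in tumor-bearing and 4.48, 7.60 and 9.55 in control thymuses. Both genes varied widely within each group, and the groups overlapped. Within groups they followed the adipocyte markers. Pearson's r of Ces1d was 0.96 in tumor-bearing and 0.93 in control thymuses (rho of 0.97 and 0.85), and r of Ces1f was 0.92 and 0.89 (rho of 0.85 and 0.81), with a two-sided permutation p of 1e-05 each. That is the smallest that 100000 permutations can give, and it was 1e-05 after Benjamini-Hochberg adjustment over the 7 relations computed in breast and thymus. With brown fat markers r of Ces1d was 0.92 in tumor-bearing and 0.89 in control thymuses, and r of Ces1f was 0.79 and 0.66. Without the 2 arrays farthest from the median, r of Ces1d was 0.95 and 0.86 and that of Ces1f 0.89 and 0.81. Within the earlier (10 mice) and later (15 mice) run of sample IDs, r of Ces1f was 0.93 and 0.92 in tumor-bearing thymuses. In control thymuses it was 0.99 and 0.68. For Ces1d r was 0.96 and 0.97 in tumor-bearing and 0.95 and 0.89 in control thymuses. The values over 25 arrays and over the earlier run include the arrays of pairs 4 and 7. The lowest control values of both genes were in the thymus of pair 7, which also had the lowest adipocyte marker mean, 7.71. Ces1c reached 8.62 in the tumor-bearing thymus of pair 7, the array with raised hepatocyte markers, against a median of 4.87 in tumor-bearing and 4.79 in control thymuses.

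**Figure D5:**
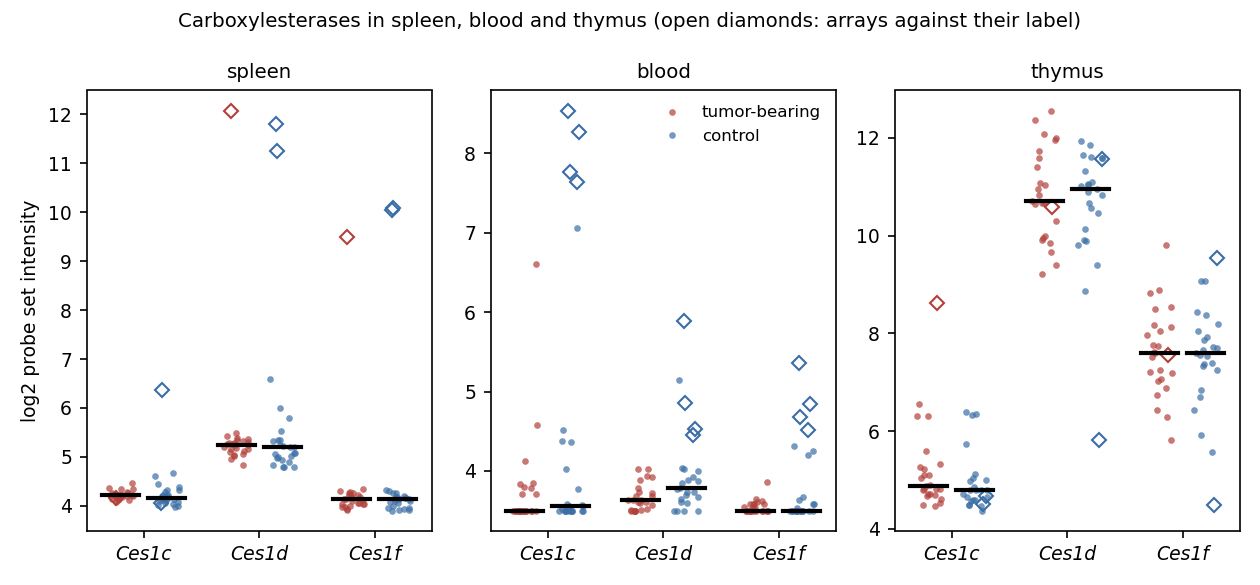
Log2 probe set intensity of Ces1c, Ces1d and Ces1f in spleen, blood and thymus (a panel each, with its own scale), tumor-bearing mice in red and control mice in blue, with a black line at the median of each group. Open diamonds are arrays whose tissue markers went against their label; in spleen they hold the Ces1d values of 12.08 in a tumor-bearing mouse and 11.25 and 11.81 in control mice, and in blood the Ces1c values of 7.64 to 8.54 in control mice.

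Liver changes were set against those in other tissues by differences of linked mice (limma, all genes) only where a member had signal above background in both, which left Ces1d and Ces1f in thymus. Ces1f changed by -1.03 in liver and by 0.12 in thymus, a difference of -1.15 ± 0.42 that did not pass over 25 links (adjusted p = 0.162). Without the links that held an array against its label the difference was -1.41 ± 0.36 (adjusted p = 0.0155, n = 22 links). Ces1d differed by -0.77 ± 0.36 over 25 links (adjusted p = 0.343) and by -0.84 ± 0.27 over those 22 (adjusted p = 0.0636). Over all genes 0.901% were lower in liver over 25 links and 2.56% over 22.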

How the data were processed

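The authors deposited 1 linear intensity per probe set and array. It was already summarised and scaled, by methods not given in the sources used here. Per the labels' protocols, RNA was extracted with Trizol and amplified into biotin-labelled cRNA. All 45101 probe sets of 250 arrays were read. A single gene symbol was listed for 34958, several for 932 and none for 9211, and 34754 symbols were matched to GRCm38.p6 by Entrez number. A floor was set at the 5th percentile (11.3) before log2, and the probe set with the highest mean was used for each of 18194 genes. Array medians ran from 25.2 in blood to 129.5 in thymus (medians over the arrays of a tissue), so levels were not compared across tissues. The number of arrays limits the precision.

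Each tissue was fitted alone in limma 3.58.1 (R 4.3.3). The block was the matched pair that the labels name, and p was adjusted by Benjamini-Hochberg over all genes. Within pairs the median correlation of deviations was 0.31 in liver and 0.08 in breast, against -0.02 to 0.01 for other pairings. Changes between tissues used mice linked through runs of sample IDs, an inference. Correlations used 100000 permutations in Python 3.11.15 with numpy 2.4.6 and scipy 1.17.1, two-sided, for members with a median above 6. That limit was set after seeing the data. The planned relations in spleen, and those with hepatocyte markers, were not run, because the arrays fall into separate clusters. The test was tried on simulated data for each tissue. Members, lists, tests and the rule for named genes were chosen with earlier results of these data known. The rule took all members and other carboxylesterases, up to 3 called genes per list, and the 5 genes most like Ces1d in control breasts and Ces1e in liver.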

Additional observations from a re-analysis of the deposited data

Results flagged for a closer look

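Ces1e passed a test of its liver change against its change in 2 other tissues, in which it lay at or near background, so a fall there could not have been seen and the differences largely restate the liver change. Liver minus blood was -0.98 ± 0.23 (limma adjusted p = 0.00408, 25 links), with changes of -1.14 in liver and -0.15 in blood, and Ces1e lay at the floor in all 25 arrays of tumor-bearing blood and in 17 of 25 of control blood. Liver minus thymus was -1.24 ± 0.26 (limma adjusted p = 0.00473, 25 links), with changes of -1.14 in liver and 0.10 in thymus. Its median intensity in thymus was 21.2 in tumor-bearing and 18.2 in control mice, below the 20th percentile of that tissue (33.2).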

How the results depend on the processing

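Numbers of genes called depended on which pairs entered. Leaving out pairs with an array far from its group gave 3287 higher and 3339 lower genes in liver, 2796 lower in blood and 36 higher in thymus. The earlier run of IDs alone gave 3317 higher and 3737 lower genes in breast, 85 and 10 in liver, 303 and 14 in blood and 0 higher in thymus. The later run alone gave 2209 higher and 2120 lower in liver, 1828 lower in spleen and 12 higher in thymus. Without genes under the median level there were 2996 lower in breast, 215 lower in liver and 4 higher in thymus. Quantile normalization gave 1166 lower in blood, and leaving out probe sets marked as shared gave 1 higher in thymus. Leaving out arrays against their label, chosen after seeing the data, gave 1398 lower in liver, 446 lower in blood, 18 higher in thymus, and 6659 and 1252 genes whose liver change differed from that in spleen and thymus.

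For members, the sign turned in 26 of 390 values, nearly all of them small. In liver Ces1c was -0.10 with quantile normalization, -0.08 without outlying arrays, -0.11 in the later run and -0.11 without pair 9. Ces1g was 0.26 in the earlier run, and Ces2e was -0.04 without outlying arrays, -0.00 in the later run and -0.04 without pair 9. In spleen, without outlying arrays, Ces1c was 0.04, Ces1d 0.02, Ces1f 0.02 and Ces2e 0.09. In its earlier run Ces1c was 0.01, Ces1e 0.05 and Ces2e 0.05, and in its later run Ces1g was -0.02. Without arrays against their label Ces1c was 0.02, Ces1f 0.03 and Ces2e 0.11 there, and with a floor at the tissue's own 20th percentile Ces1g was -0.00. In thymus Ces1d was -0.07 and Ces2e 0.05 without outlying arrays, and Ces1g was -0.07 with the tissue's floor, -0.12 in the earlier run and -0.00 without arrays against their label. Ces2e was 0.01 there in the later run. The causes were not tested. Ces1e and Ces1f fell in liver under every alternative run for them except the earlier run alone, which holds pair 9 among 10 pairs. Ces1f has no value without probe sets marked as shared, since its only one is of that kind.

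The matched pair was the block in all fits, and without the replicate block 381 genes fell and 1334 rose in liver, with -1.14 for Ces1e and -1.03 for Ces1f, and no member's call changed. Signals near background limit which falls could be seen for Ces1c, Ces1e, Ces1g, Ces2a and Ces2e in breast, spleen, blood and thymus, and for Ces1d and Ces1f in spleen and blood.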
